A study of Homo sapiens with 5 samples.

Results

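The genes described here are the canonical histone genes, which encode the linker histone H1 and the core histones H2A, H2B, H3 and H4 that package newly copied DNA. They were chosen by symbol, as every gene of the HIST1 to HIST4 clusters that encodes one of these 5 classes and is listed in both deposited tables, and no measured value entered the choice. The rule gave 47 of the 15187 genes that the tables share: 2 for H1, 13 for H2A, 13 for H2B, 10 for H3 and 9 for H4. By cluster, 33 belong to HIST1, 11 to HIST2, 2 to HIST3 and 1 to HIST4. A further 17 genes fit the rule in only 1 of the tables (10 in the first table and 7 in the second). None of these 17 had more than 6 counts in a library, and they were not compared.

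The RNA came from SAS, an established line of human tongue squamous cell carcinoma. Cells carried either a control short hairpin RNA (shCtrl, 2 libraries) or one against CCT2 (shCCT2, 3 libraries), a gene for a subunit of the chaperonin that folds actin and tubulin. The first table held shCtrl 1, shCCT2 1 and shCCT2 2, and the second table held shCtrl 2 and shCCT2 3. Each knockdown library was compared with its own table's control. The labels name no time after hairpin delivery, do not say whether 1 hairpin sequence or several were used, and do not say whether the libraries came from separate cultures. The p-values therefore cover only the differences between these 5 libraries, which can be technical. All 5 libraries were made from RNA selected with oligo(dT) beads, which capture poly(A) tails.

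That selection matters for these genes. Most canonical histone mRNAs are made in S phase, when DNA is copied, and they are the main class of animal mRNA that ends without a poly(A) tail. The precursor is cut just after a conserved stem-loop, which the protein SLBP binds, and a histone downstream element that pairs with U7 small nuclear RNA guides the cut. Some canonical histone genes can also use a poly(A) site past the stem-loop, mainly in cells that have left the cycle or are differentiating. A list of such genes, written from general knowledge, covers 10 of the 47 members and is called the poly(A) list below. In bulk RNA, fewer cells that express a gene and less of its RNA per cell cannot be told apart.

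The stem-loop could be read in the transcript models of 26 of the 47 members (55.3%) in GENCODE release 29, and in 0.264% of the 19669 coding genes searched. The search was for the 16 bases of the element (GG at its foot, CTTTT into the loop, AG after it, CC at its close). It covered whole transcripts, on the sense strand only. In the members the match used lay after the coding region, while for all coding genes the place of a match was not limited. Of the 21 members without it, 19 have models with no base after the stop codon, where the element lies. For these 19 the absence says nothing about their mRNA. The 4 forms of the element found are shown by 1 member each, with the stem-loop in capitals and its flanks in lower case. They are shown because an mRNA cut just after this element carries no poly(A) tail.
HIST3H2A: ataaaGGCTCTTTTCAGAGCCacctactat
HIST1H2BD: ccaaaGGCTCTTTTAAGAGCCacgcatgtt
HIST2H4A: ccaaaGGCCCTTTTTAGGGCCgaccacttg
HIST1H4E: tcaaaGGCCCTTTTCAGGGCCgcccacagt
The form of HIST3H2A is shared by 17 members, all of classes H2A, H2B and H3. The form of HIST1H2BD is shared by 3 members (with HIST1H2BC and HIST1H3G). All 6 H4 members with a readable element differ from these in the stem, either as in HIST1H4E (4 members) or as in HIST2H4A (2 members). HIST1H2BD also has a second model that lacks the stem-loop and holds AATAAA, the usual poly(A) signal, after its coding region. Many models do not end at the element. Of the 26 members, 19 have a model that runs over 100 bases past it, and 14 of these models hold AATAAA there. Of those 19 members, 5 are on the poly(A) list. The models shown for HIST3H2A, HIST2H4A and HIST1H4E run 390, 1167 and 1022 bases past it.

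Levels were very low in all 5 libraries. Library totals ran from 16913585 to 18156592 counts, and the 47 members together took 454 counts in shCtrl 1, 535 and 454 in its knockdown libraries shCCT2 1 and shCCT2 2, 893 in shCtrl 2 and 1292 in shCCT2 3. That is between 0.00253% and 0.00729% of a library. No more than 10 counts in any library were found for 30 members, and 23 members were at 0 in at least 1 library. The controls shCtrl 1 and shCtrl 2 had 7 and 16 members at 0, and shCCT2 1, 2 and 3 had 5, 5 and 3.

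The counts were held by few genes. HIST1H2BK, an H2B gene, took 21.3% of all member counts, and with HIST1H1C, which encodes the linker histone H1.2, the share was 38.01%. The 4 members with most counts took 53.8% and the 8 with most took 75.2%. These shares are not corrected for gene length. The 10 H3 members took only 28.5, 11, 40.6, 19.04 and 23.5 counts together in shCtrl 1, shCtrl 2, shCCT2 1, shCCT2 2 and shCCT2 3, and none of them had enough counts to enter the fit. Of the 47 members, 15 passed the filter on low counts: 1 H1, 6 H2A, 5 H2B and 3 H4 genes, of which 8 are on the poly(A) list and 7 are not.

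Some members cannot be told apart by their reads. HIST2H2AA3 and HIST2H2AA4, HIST2H3A and HIST2H3C, and HIST2H4A and HIST2H4B had the same value as their partner in every library, and the coding sequences of each pair are 100% identical in GENCODE. Each such pair carries 1 measurement. Between the coding sequences of a class, these pairs included, the median identity was 77.6% in H1 (1 pair) and from 82.9% in H4 to 89.4% in H2B in the others. Values that were not whole numbers were found for 12 members, so the values of single members are uncertain where reads could be shared.

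**Figure D1:**
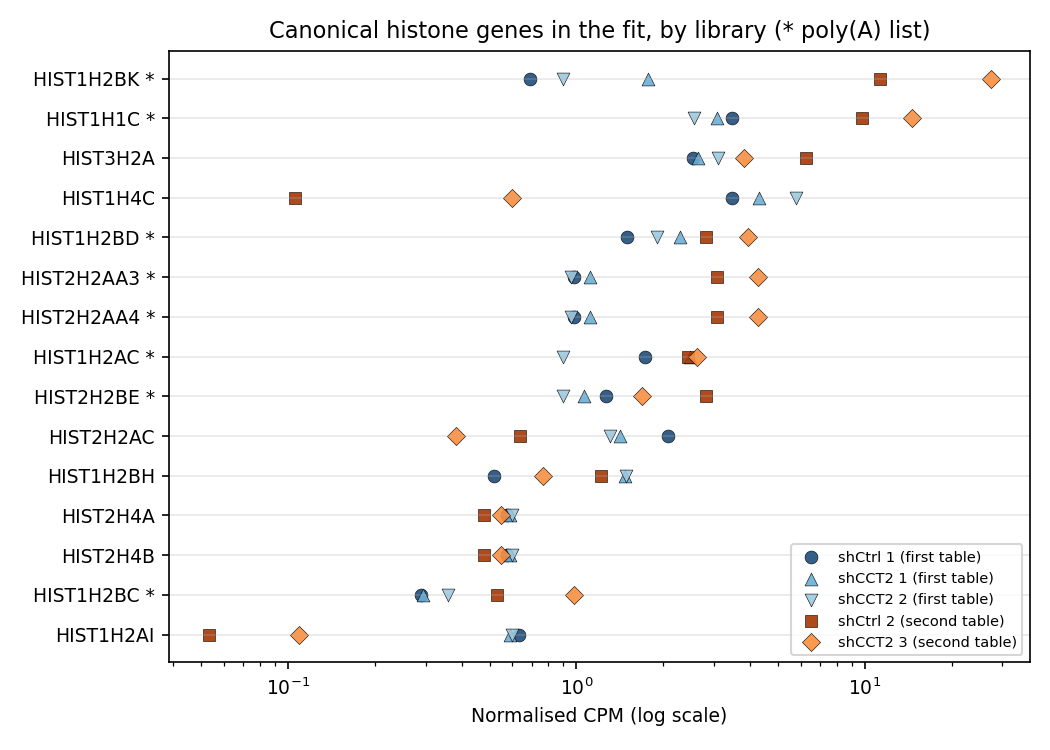
Normalised CPM (counts scaled to library size, log axis) of the 15 histone genes in the fit, 1 point per library, blue for the first table and orange for the second, with asterisks for the poly(A) list. HIST1H2BK and HIST1H1C lie to the right in both libraries of the second table and HIST1H4C and HIST1H2AI to the left.

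Before the comparison, the targeted gene was checked. CCT2 stood at 629.6 and 642.1 CPM (counts relative to the normalised library size) in both controls in turn, and at 296.0, 272.3 and 260.1 in shCCT2 1, 2 and 3. The groups did not overlap, as the labels require. The fitted log2 change was -1.22 ± 0.18 (SE, 3 knockdown and 2 control libraries; edgeR's quasi-likelihood test, Benjamini-Hochberg adjusted p = 0.542). DESeq2's Wald test called it (adjusted p = 3.90e-05), and the adjusted p varied between that value and 0.99996 across alternatives.

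Differences between the 2 tables, seen with both hairpins, were larger than those with knockdown. Summed over the 47 members, the level was 26.1 CPM in shCtrl 1, 31.5 in shCCT2 1 and 27.1 in shCCT2 2, against 47.4 in shCtrl 2 and 70.5 in shCCT2 3. The 10 members of the poly(A) list carried this difference, with sums of 10.95, 13.3 and 9.49 CPM in the libraries of the first table (shCtrl 1, shCCT2 1, shCCT2 2) and 35.9 and 59.9 CPM in shCtrl 2 and shCCT2 3. The other 37 members had 15.1, 18.2 and 17.7 CPM in the first table and 11.5 and 10.6 CPM in the second table. Between the controls this difference lay within counting error (count ratio per total, shCtrl 2 over shCtrl 1, 0.870, 95% interval 0.723 to 1.04, exact). The difference between the controls also rested on HIST1H4C, without which the ratio was 1.11 (0.916 to 1.36). Without HIST3H2A as well, which had 44 counts in shCtrl 1 and 118 in shCtrl 2, the ratio was 0.638 (0.490 to 0.826). Between the knockdown libraries no interval was computed. There the 37 had 309 and 296 counts in shCCT2 1 and 2 against 195 in shCCT2 3. Without HIST1H4C these were 236, 199 and 184, and without HIST3H2A as well 191, 147 and 114. The sum of the 37 thus held members that differed in opposite directions. The poly(A) list thus took 41.9%, 42.2% and 34.8% of the member counts in the first table and 75.8% and 84.9% in the second table. The list was written with earlier results of these data known, so the split is a description.

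**Figure D2:**
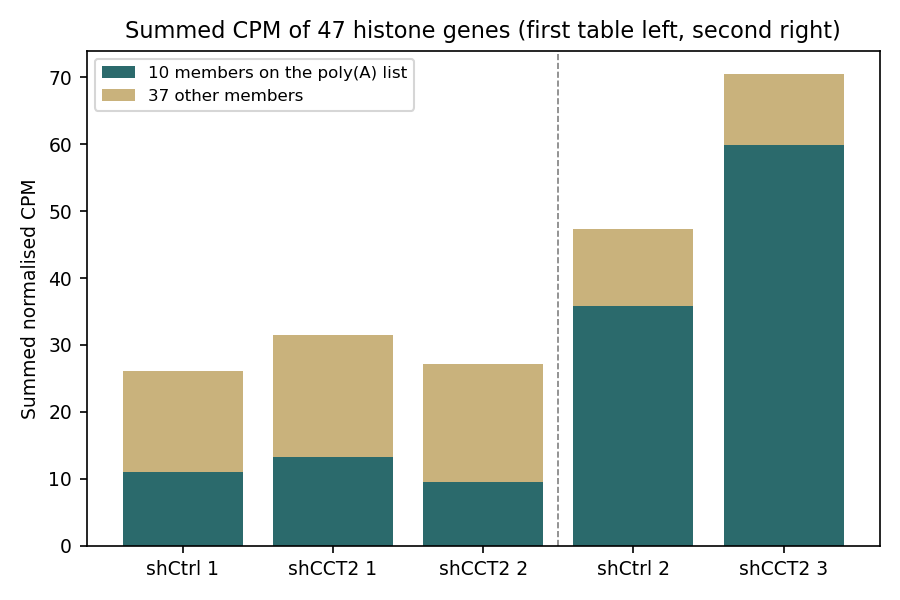
Summed normalised CPM of the 47 histone genes in each library, stacked by the 10 members of the poly(A) list and the 37 other members, with the first table left of the dashed line. The lower segment is 9.49 to 13.3 CPM in the first table and 35.9 to 59.9 CPM in the second table.

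HIST1H2BK had 0.692 CPM in shCtrl 1, 1.77 in shCCT2 1 and 0.895 in shCCT2 2, but 11.3 in shCtrl 2 and 27.3 in shCCT2 3. In counts these are 12, 30, 15, 214 and 501. Every library of the second table was above every first-table library, and the fitted difference between tables was 4.23 ± 0.40 on the log2 scale (SE, 2 against 3 libraries; edgeR, adjusted p = 0.00242). Per total count, shCtrl 2 had 18.95 times the HIST1H2BK of shCtrl 1 (95% interval 10.6 to 37.3, exact, counting error only). HIST1H1C had 3.46, 3.06 and 2.57 CPM in shCtrl 1, shCCT2 1 and shCCT2 2, against 9.80 in shCtrl 2 and 14.6 in shCCT2 3. Its tables did not overlap either (2.01 ± 0.36, SE, adjusted p = 0.0121, edgeR). The identical pair HIST2H2AA3 and HIST2H2AA4 had 0.980, 1.12 and 0.955 CPM for each gene in the first table in the same order, against 3.07 and 4.26 in the second table (1.87 ± 0.44, SE, adjusted p = 0.0254, edgeR).

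HIST1H4C, an H4 gene that is not on the poly(A) list, ran the other way. It had 3.46 CPM in shCtrl 1, 4.30 in shCCT2 1 and 5.79 in shCCT2 2, against 0.106 in shCtrl 2 and 0.600 in shCCT2 3, that is 60, 73 and 97 counts against 2 and 11. The fitted difference was -3.66 ± 0.63 (SE, edgeR, adjusted p = 0.0115). HIST1H2AI, an H2A gene with at most 11 counts in a library, had 0.634, 0.589 and 0.597 CPM in the first table and 0.0531 and 0.109 in the second table (-2.79 ± 0.79, SE, edgeR, adjusted p = 0.0435); it is named because the count of lower genes is small. HIST2H2AC, an H2A gene, had 2.08, 1.41 and 1.31 CPM in the first table and 0.636 and 0.382 in the second table, and did not pass (-1.76 ± 0.53, SE, edgeR, adjusted p = 0.0510).

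In all, 4 of the 15 members tested were higher in the second table and 2 were lower at an adjusted p under 0.05, where 14.9% of all 13123 genes tested were higher and 13.8% lower. The count of 4 holds an identical pair that gives 1 measurement. All 4 higher genes are on the poly(A) list, and neither lower gene is. The fitted difference was above 0 for 8 of 8 tested members on the list (median 1.59) and for 1 of 7 others (median -0.18; the 1 is HIST3H2A), against 50.3% of all genes (median 0.005). The 8 hold the identical pair HIST2H2AA3 and HIST2H2AA4, and the 7 others hold HIST2H4A and HIST2H4B, each pair 1 measurement. The filter on low counts can be met through the libraries of 1 table alone. HIST1H2BC had 5, 5 and 6 counts in shCtrl 1, shCCT2 1 and shCCT2 2, and 10 and 18 in shCtrl 2 and shCCT2 3. HIST1H2AI had 11, 9.63 and 9.64 counts against 1.31 and 2 in the same order. The directions of these members in the counts above thus followed from the filter. HIST1H2BK and HIST1H4C passed with each library left out in turn. HIST1H1C did not pass without shCCT2 3 (adjusted p = 0.0584). HIST2H2AA3 did not pass without shCCT2 1, 2 or 3 (adjusted p = 0.0968, 0.0749 and 0.125). HIST1H2AI did not pass without shCtrl 1, shCtrl 2, shCCT2 1 or shCCT2 3 (adjusted p from 0.103 to 0.125) or without the filter on low counts (0.0530), and was not tested without shCCT2 2. These tests of the tables were chosen after the data were seen.

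**Figure D3:**
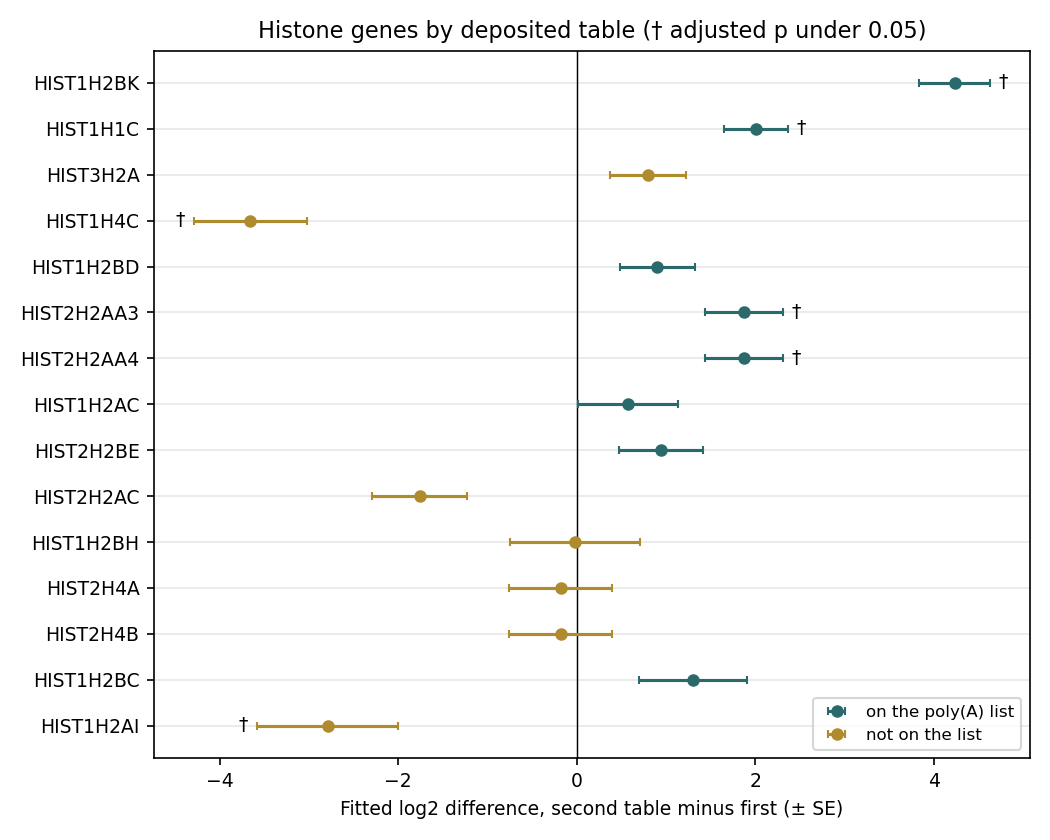
Fitted log2 difference, second table minus first, with its SE for the 15 histone genes in the fit, coloured by the poly(A) list; daggers mark an adjusted p under 0.05. All 8 genes on the list lie above 0, and of the 7 others 1, HIST3H2A, does. HIST1H2BC and HIST1H2AI met the filter on low counts only through the table where they are higher.

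The tables also differed in genes that mark the cells. Of 10 squamous epithelial markers tested, 5 were lower and 1 higher in the second table (edgeR, adjusted p under 0.05; all genes: 13.8% lower and 14.9% higher). Named after their values were seen, the lower ones were KRT5, KRT14, KRT17, CDH1 and EPCAM and the higher one KRT6A. The summed level of the 10 was 5505, 3585 and 4630 CPM in shCtrl 1, shCCT2 1 and shCCT2 2 against 1841 and 3240 in shCtrl 2 and shCCT2 3. The keratin gene KRT5, 1 of these 10 markers, was present in all 5 libraries at 257.8 to 1942 CPM. CDH1, which encodes E-cadherin, was 185.4 to 251.4 CPM in the first table and 10.6 and 24.9 CPM in the second table. Summed leukocyte markers (5 genes) ran from 78.0 to 121.0 CPM in the first table and were 61.8 and 44.4 CPM in the second table; most of this is CD68, while ITGAM was at most 0.403 CPM and 0 in shCtrl 2. In shCCT2 2 against shCtrl 1, PTPRC was 6.50 against 0.0576 CPM, CD14 15.5 against 6.23 and LYZ 0.537 against 0.403. CD68 (98.3 against 111.6) and ITGAM (0.179 against 0.403) were lower there. Summed fibroblast markers (3 genes) ran from 3.003 to 4.50 CPM in the first table and were 12.3 and 4.86 CPM in the second table. Most of this sum was COL1A1, at 11.3 CPM in shCtrl 2. PDGFRB went the other way, at 1.56, 1.18 and 1.49 CPM in the first table and 0.477 and 0.109 CPM in the second table. PDGFRA was at most 0.530 CPM. Summed endothelial markers (5 genes) ran from 2.24 to 4.38 CPM in the first table and were 72.2 and 20.6 CPM in the second table, nearly all from ENG, while KDR was at most 0.106 CPM and at 0 in 3 libraries. Their part in the histone values was not tested. What separates the tables (culture, library preparation or processing) is not given in the labels, so these cannot be told apart.

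The knockdown comparison itself asked whether histone mRNA levels differ between shCCT2 and shCtrl within a table. Of the 15 members tested, 0 were higher and 0 lower at an adjusted p under 0.05 (edgeR; 0% of all genes passed in either direction), and DESeq2's Wald test called 0 of the 8 members to which it gave an adjusted p. At an unadjusted p under 0.05, 1 member was higher, HIST1H2BK, and 0 were lower, with both tools, where edgeR gave 2.83% of all genes higher and 4.57% lower. That 1 became 0 without shCtrl 2, shCCT2 1 or shCCT2 3, and 2 without shCtrl 1. The fitted change was above 0 for 12 of the 15, against 48.5% of all genes, with a median of 0.11 on the log2 scale (0.50 without shCtrl 1 and 0.060 without shCtrl 2) against -0.02 for all genes. Those 12 hold the identical pairs HIST2H2AA3 with HIST2H2AA4 and HIST2H4A with HIST2H4B, each 1 measurement. The medians of the members were 0.05, 0.03 and 0.14 in shCCT2 1, 2 and 3 (log2 of CPM with 0.5 added). By CPM with nothing added, no tested member was 2-fold or more below its own control, where 6.1%, 2.54% and 16.1% of all genes were in shCCT2 1, 2 and 3. At least 2-fold above were HIST1H2BK and HIST1H2BH in shCCT2 1 (all genes: 2.16%), HIST1H2BH in shCCT2 2 (all genes: 2%), and HIST1H2BK, HIST1H4C and HIST1H2AI in shCCT2 3 (all genes: 9.91%). HIST1H2BH and HIST1H2AI had at most 25 and 11 counts in a library.

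Among the H2B genes, HIST1H2BK had the values given above, so each knockdown library was above its own control, by 0.93, 0.23 and 1.23 in shCCT2 1, 2 and 3 (on the same log2 scale, which understates the change of low genes and is used for every single library below). The fitted change was 1.12 ± 0.41 (SE, edgeR, adjusted p = 0.542; unadjusted p = 0.0326 in the same fit across all genes), with adjusted p-values from 0.151 to 0.99996 over the alternatives. By counts alone, shCCT2 1 had 2.48 times the HIST1H2BK of shCtrl 1 (95% interval 1.23 to 5.31, exact, counting error only), shCCT2 3 had 2.24 times the HIST1H2BK of shCtrl 2 (1.90 to 2.64), and shCCT2 2 had 1.28 times that of shCtrl 1, with an interval that includes no difference (0.559 to 2.99). HIST1H2BD, another H2B gene of the poly(A) list, had 1.499 CPM in shCtrl 1, 2.30 in shCCT2 1 and 1.91 in shCCT2 2, then 2.81 in shCtrl 2 and 3.93 in shCCT2 3. It too was above its own control in all 3, by 0.48, 0.27 and 0.42, and did not pass (fitted 0.49 ± 0.43, SE, edgeR, adjusted p = 0.629).

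HIST2H2BE, the H2B gene of the HIST2 cluster with most counts, was the H2B member that lay below its control throughout. It had 1.27, 1.06 and 0.895 CPM in shCtrl 1, shCCT2 1 and shCCT2 2, and 2.81 and 1.69 in shCtrl 2 and shCCT2 3 (fitted -0.54 ± 0.47, SE, edgeR, adjusted p = 0.628). HIST1H2BH was 0.519 CPM in shCtrl 1 and 1.47 and 1.49 in shCCT2 1 and 2, but went from 1.22 in shCtrl 2 to 0.764 in shCCT2 3. Its libraries thus went in opposite directions, and its counts were at most 25 (fitted 0.49 ± 0.70, SE). HIST1H2BC, with at most 18 counts in a library, had 0.288, 0.294 and 0.358 CPM in the first table and 0.530 and 0.982 in the second table (fitted 0.54 ± 0.63, SE).

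Among the H2A genes, HIST3H2A had 2.54 CPM in shCtrl 1, 2.65 in shCCT2 1 and 3.10 in shCCT2 2, then 6.25 in shCtrl 2 and 3.82 in shCCT2 3. It was near its control in the first table and below it in the second table, where the count ratio was 0.566 (95% interval 0.415 to 0.768, exact, counting error only), and the fitted change was -0.22 ± 0.43 (SE). HIST2H2AC was below its control in all 3 knockdown libraries, by -0.43, -0.51 and -0.37 on the log2 scale (fitted -0.65 ± 0.50, SE, edgeR, adjusted p = 0.590). HIST1H2AC had 1.73, 2.47 and 0.895 CPM in shCtrl 1, shCCT2 1 and shCCT2 2, and 2.44 and 2.62 in shCtrl 2 and shCCT2 3. The 2 knockdown libraries of the first table lay on either side of their control, and the fitted change was 0.03 ± 0.57 (SE). The pair HIST2H2AA3 and HIST2H2AA4 changed by 0.13, -0.02 and 0.41 in shCCT2 1, 2 and 3 (fitted 0.27 ± 0.45, SE).

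The linker histone gene HIST1H1C was below its control in the first table, by -0.15 and -0.37, and above it in the second table, by 0.55, with a fitted change of 0.09 ± 0.36 (SE). Among the H4 genes, HIST1H4C was above its control in all 3 knockdown libraries, by 0.28, 0.67 and 0.86 (fitted 1.002 ± 0.56, SE, edgeR, adjusted p = 0.542). The value in shCCT2 3 rests on 11 counts against 2, a ratio of 5.25 with an interval of 1.15 to 48.8 (95%, exact, counting error only). The identical pair HIST2H4A and HIST2H4B had 0.477 to 0.597 CPM in every library (fitted 0.10 ± 0.57, SE).

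**Figure D4:**
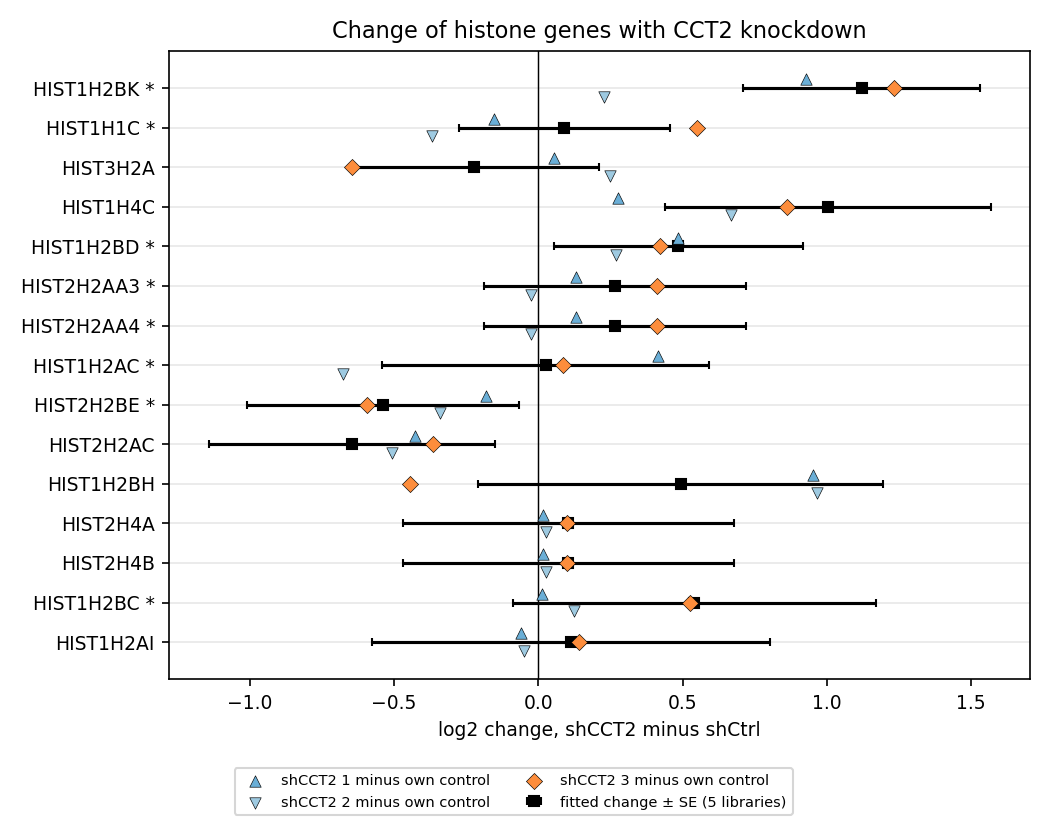
Log2 change with CCT2 knockdown for the 15 histone genes in the fit: black squares with bars are the fitted change and its SE, coloured points each knockdown library against the control of its own table, and asterisks mark the poly(A) list. HIST1H2BK has the fitted value farthest above 0, at 1.12, and HIST2H2AC the farthest below, at -0.65; none passed.

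Whether the knockdown change itself differed between the tables was tested with an interaction term. No member passed (0 of 15; 0% of all genes), and 0 had an unadjusted p under 0.05, where 17.2% of all genes did (edgeR). DESeq2 was not run on this term. The lowest adjusted p among the members was 0.329, for HIST1H2BH, with a difference of -2.17 ± 0.99 (SE, change in the second table minus that in the first). By cluster, 8 of 8 tested HIST1 members had a fitted knockdown change above 0 (median 0.49), as did 4 of 6 HIST2 members (median 0.10), while the 1 tested HIST3 member was below 0. The 4 HIST2 members above 0 are the identical pairs HIST2H2AA3 with HIST2H2AA4 and HIST2H4A with HIST2H4B. By list, 7 of 8 tested members on the poly(A) list were above 0 (median 0.27), and 5 of 7 others (median 0.10), with 1 such pair in each group. None of these members passed.

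Promoter sequence is given for the 2 members with most counts, because they take 38.01% of the member counts and both were higher in the second table. These are the 120 bases before the start of each gene from RefSeq (GRCh38.p14), 5′ to 3′ on the gene's strand, with motifs on either strand in capitals. The motifs searched for were the TATA box (TATAAA), the CCAAT box, and the octamer ATTTGCAT. HIST1H2BK (H2BC12 in RefSeq) lies on the minus strand and its window is chr6:27146859-27146978. HIST1H1C (H1-2) lies on the minus strand as well, with its window at chr6:26056471-26056590.
HIST1H2BK: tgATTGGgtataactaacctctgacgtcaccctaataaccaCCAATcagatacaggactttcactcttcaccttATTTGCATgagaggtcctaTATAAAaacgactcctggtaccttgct
HIST1H1C: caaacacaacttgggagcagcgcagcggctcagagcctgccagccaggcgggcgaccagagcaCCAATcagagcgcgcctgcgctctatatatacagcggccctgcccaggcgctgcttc
The HIST1H2BK window holds all 3 motifs: the TATA box, the CCAAT box and, just before the TATA box, the octamer that is known from H2B promoters and is bound by the factor POU2F1. The HIST1H1C window holds a CCAAT box.

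Over the 44 members found in the promoter table, counting any listed window of 300 bases, TATAAA was present on either strand in 68.2%, against 14.0% of all 27305 genes. CCAAT was present in 84.1% of members against 39.7%, and ATTTGCAT in 40.9% against 2.19%. The octamer was found in 9 of 13 H2B and 8 of 12 H2A members, 1 of 9 H3 members and 0 of 8 H4 members. Many H2A and H2B genes lie head to head, so that windows can overlap. CCAAT was in every H1, H2A, H2B and H3 member found, but in 1 of 8 H4 members. A match is only a match of letters.

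Genes that make and handle histone mRNA were measured far more deeply than the histone genes. SLBP, whose product binds the stem-loop, had 131.0 CPM in shCtrl 1, 163.9 in shCCT2 1 and 141.4 in shCCT2 2, and 68.7 in shCtrl 2 and 168.2 in shCCT2 3. It was above its own control in each, by 0.32, 0.11 and 1.29, with a fitted change of 0.66 ± 0.28 (SE, edgeR, adjusted p = 0.542). NPAT, the cyclin E-CDK2 substrate that activates histone transcription, had 34.5, 44.5 and 33.5 CPM in shCtrl 1, shCCT2 1 and shCCT2 2 and 25.2 and 42.8 CPM in shCtrl 2 and shCCT2 3 (fitted 0.42 ± 0.25, SE). It lay above its control in shCCT2 1 and 3 and just below it in shCCT2 2. CASP8AP2, the FLASH protein of the histone cleavage complex, had a fitted change of 0.68 ± 0.28 (SE). ERI1, the exonuclease that trims the histone 3′ end, had 0.60 ± 0.25, and UPF1, a helicase of histone mRNA decay, had 0.48 ± 0.24.

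Of the 17 transcription and 3′ processing genes tested, 0 passed at an adjusted p under 0.05, 1 was higher at an unadjusted p under 0.05 (CASP8AP2) and 0 were lower (edgeR; all genes: 2.83% and 4.57%). Their fitted change was above 0 for 13 of 17, against 48.5% of all genes, with a median of 0.21 and medians of 0.19, -0.04 and 0.39 in shCCT2 1, 2 and 3. POU2F1, named above for the octamer and chosen for that reason, had a fitted change of -0.33 ± 0.20 (SE).

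Replacement variants, most of which are made outside S phase from ordinary polyadenylated mRNAs, gave a contrast in depth. The 12 variant genes summed to 1835 to 2678 CPM in a library, against 26.1 to 70.5 CPM for the 47 canonical genes, with no correction for gene length. H3F3B, which encodes the variant H3.3, had 337.4, 483.0 and 425.3 CPM in shCtrl 1, shCCT2 1 and shCCT2 2 and 503.2 and 735.2 in shCtrl 2 and shCCT2 3 (fitted 0.48 ± 0.19, SE). H2AFV, an H2A.Z gene, was above its own control by 0.42, 0.40 and 0.57 (fitted 0.48 ± 0.17). H1FX, which encodes the linker variant H1X, was below its control by -0.48, -0.14 and -0.93 (fitted -0.58 ± 0.23), and H2AFJ, the H2A.J gene, by -0.48, -0.03 and -1.19 (fitted -0.67 ± 0.31). None of the 12 passed (edgeR, adjusted p under 0.05); 2 were higher and 1 lower at an unadjusted p under 0.05 (all genes: 2.83% and 4.57%), and 7 of 12 were above 0 (all genes: 48.5%).

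Between the tables, 5 of the 12 variant genes were higher in the second table and 2 were lower at an adjusted p under 0.05 (edgeR; all genes: 14.9% higher and 13.8% lower). Named after their values were seen, the higher ones were H1FX, H1F0, H2AFJ, H2AFY2 and H3F3B, and the lower ones H3F3A and CENPA. H1FX was highest in shCtrl 2 (1.51 ± 0.23, SE, edgeR, adjusted p = 0.00824), at 49.0 to 68.6 CPM in the first table and 248.9 and 130.6 CPM in shCtrl 2 and shCCT2 3.

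Histone chaperones, which carry new histones to DNA, had fitted changes above 0 for 16 of 18 genes (median 0.31), where 48.5% of all genes were above 0. Of the 18, 5 were higher and 0 lower at an unadjusted p under 0.05 (edgeR; all genes: 2.83% and 4.57%), and 0 passed. The 4 with the smallest p were IPO4, the importin that carries H3 and H4 into the nucleus, at 1.05 ± 0.40 (SE), TONSL, a reader of new H4, at 0.94 ± 0.36, SUPT16H, a subunit of the FACT complex, at 0.84 ± 0.32, and HJURP, the CENP-A chaperone, at 0.45 ± 0.17. The other gene of the 5, named after its value was seen, was ASF1B, which encodes an H3-H4 chaperone, at 0.60 ± 0.24. The first 3 had their highest change in shCCT2 3, at 2.02, 1.87 and 1.54 on the log2 scale. In shCCT2 2 the same 3 had 0.12, 0.30 and 0.09. The DNA replication list had medians of 0.35, 0.07 and 1.51 in shCCT2 1, 2 and 3, and 25 of its 27 genes had a fitted change above 0 (all genes: 48.5%). Its summed level was 4308, 5329 and 4617 CPM in shCtrl 1, shCCT2 1 and shCCT2 2. In shCtrl 2 and shCCT2 3 it was 1617 and 4988 CPM. The median in shCCT2 3 thus rests on a control with the lowest sum of all libraries, and shCCT2 3 itself lay within the range of the first table. In shCCT2 3, where that median was 1.51, the 37 canonical members not on the poly(A) list summed to 10.6 CPM, against 11.5 CPM in its control (count ratio 0.862, 95% interval 0.707 to 1.05, exact, counting error only). Without HIST1H4C and HIST3H2A, which had most counts among the 37, the ratio was 1.13 (0.857 to 1.503). The whole poly(A) list had 1.55 (1.40 to 1.71). It kept its own members with most counts, HIST1H2BK (214 in shCtrl 2, 501 in shCCT2 3) and HIST1H1C (185 and 267). No ratio was computed without those, so 1.13 and 1.55 are not trimmed alike.

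**Figure D5:**
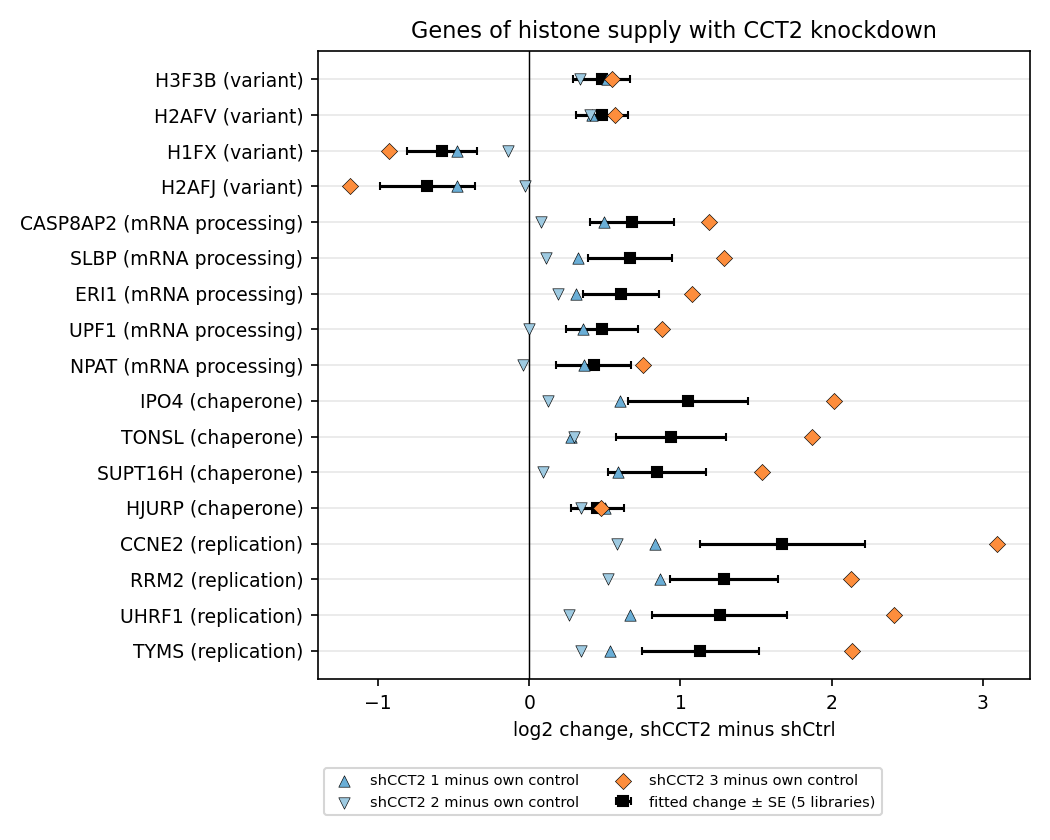
Log2 change with CCT2 knockdown of 17 genes of histone variants, histone mRNA processing, chaperones and DNA replication: black squares with bars are the fitted change and its SE, coloured points each knockdown library against the control of its own table. SLBP, IPO4, TONSL and SUPT16H have their highest point in shCCT2 3, at 1.29, 2.02, 1.87 and 1.54.

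Position along transcripts, given in the deposited coverage files, bears on how the 3′ ends were sampled. The last 20% of windows held 17.3% and 15.8% of reads in shCtrl 1 and shCtrl 2, and 14.3%, 15.8% and 14.6% in shCCT2 1, 2 and 3. The tables overlapped in this measure, and its part in the histone values was not tested.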

How the data were processed

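The authors deposited expected counts per gene in 2 tables, most of them whole numbers, per the file headers. The authors also deposited a coverage signal along transcripts for each library, per the file headers. Tools named in the submitters' processing notes are STAR 1.5.1 and HTSeq, and the build named is mm10, of the mouse. Gene identifiers are human, so the build of the tables, like the use of strand, is unknown here. Tables were joined on gene identifier and counts rounded. edgeR 4.0.16 (R 4.3.3) was fitted to all 5 libraries with table and hairpin as terms, TMM scaling and its filter on low counts by group (minimum 10), leaving 13123 genes and 2 residual degrees of freedom; p-values were Benjamini-Hochberg adjusted over all of them. Single-library log2 changes use CPM with 0.5 added. Alternatives were DESeq2 1.42.0, its size factors, no filter, no table term, a replicate block, each library left out, 1 CPM added, unscaled library totals and identical copies summed. The fit was also run on simulated counts drawn without a difference between the tables, unlike these data, so its outcome there is not used here. Libraries differed from each other by a chi-square per degree of freedom of at least 20.3, so none was a copy. Values in every library are given for CCT2, the 8 members with the highest mean CPM, up to 6 members per direction by smallest p, SLBP and NPAT; up to 4 genes per other list are named by smallest p. Members, lists and tests were chosen with earlier results of these data known. Transcript models are GENCODE release 29 and promoters RefSeq GRCh38.p14, both matched by name or identifier.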

Additional observations from a re-analysis of the deposited data

How the results depend on the processing

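No member passed the adjusted threshold for knockdown, and none was lower at an unadjusted p under 0.05, under any alternative run (DESeq2's Wald test gave an adjusted p for 8 of the 15). With all libraries, edgeR's quasi-likelihood test passed 0 of 13123 genes, and the targeted gene CCT2 itself did not pass (adjusted p = 0.542). The absence of passing members in edgeR therefore says little about them. The number of members higher at an unadjusted p under 0.05 (1 with all libraries) was 0 without the table term and 0 with a replicate block, and ran from 0 to 2 over the left-out libraries: 0 without shCtrl 2, shCCT2 1 or shCCT2 3, and 2 without shCtrl 1, which leaves the pair of the second table alone to give the change. The members' median log2 change (0.11) was 0.27 without the filter, where all 47 members enter, 0.26 with DESeq2's Wald test and -0.28 with a replicate block, and ran from 0.060 to 0.50 over the left-out libraries. The replicate numbers do not pair the samples: number 2 spans both tables, and the deviations of same-numbered libraries correlated at 0.68 and -0.60 over 13123 genes. With the block, single genes changed sign: HIST1H2BK (-1.24), HIST1H1C (-1.06), HIST2H2AA3 and HIST2H2AA4 (-0.76 each), HIST1H2AC (-0.44), HIST2H2AC (0.22) and HIST1H2BC (-0.28). HIST1H2AC also did without the table term (-0.062). Over the left-out libraries HIST1H1C ran from -0.30 to 0.60, HIST3H2A from -0.68 to 0.18, HIST1H2AC from -0.39 to 0.31, HIST1H2BH from -0.64 to 1.502 and HIST1H2AI from -0.10 to 0.98. The cause of these moves was not tested. CCT2 passed with DESeq2 (-1.21) and ran from -1.27 to -1.15 over the left-out libraries. Members higher in the second table numbered 1 to 4 and lower ones 1 over the left-out libraries, and lower ones 1 without the filter. Depth also limits these genes: 30 of 47 never exceeded 10 counts.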
